A study of Mus musculus with 36 samples.

Results

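Zymosan and Sendai virus were given to dendritic cells separately and together, and the chromatin opened or closed by the pair was compared with that of each ligand alone. The comparison rests on 6 of the 36 libraries of the series, chosen by the ligand letters in their titles: 2 with zymosan (Z), 2 with Sendai virus (S) and 2 with both (ZS). The 2 unstimulated control libraries were added to give the effect of each ligand by itself and the test of additivity.

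The cells were dendritic cells grown from the bone marrow of female mice aged 6 to 8 weeks (C57BL/6J in the protocol, C57BL/6 in the strain label). They were cultured with 15 ng/mL GM-CSF and stimulated for 6 h. The ligands are labelled "Zymosan depleted" and "SeV", and the labels do not say what the zymosan was depleted of, nor the doses. ATAC-seq was used, an assay of open chromatin that relies on a transposase cutting accessible DNA and tagging it with adapters. The unit is a read count in each of 119464 tested peaks. All groups share the culture medium and GM-CSF, and the control libraries carry no ligand. The labels do not say whether libraries 1 and 2 of a group come from separate mice, cultures or preparations, so the p-values measure only the spread between these libraries, which may be technical.

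Zymosan is a yeast cell wall preparation rich in beta-glucan. Dendritic cells bind whole zymosan through Dectin-1 (Clec7a), which signals through Syk and Card9 to NF-kB, and through TLR2. The labels do not say which of these receptors the depleted preparation used here still engages. Sendai virus is an RNA virus whose genomes are sensed in the cytosol by RIG-I, which signals through MAVS and TBK1 to IRF3 and NF-kB. Type I interferon made in this way acts through its receptor on the interferon-stimulated genes.

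The values lead to 3 kinds of promoter, and the windows below were printed because each stands for one of them. They run from 250 bases before to 50 bases after the annotated start site (RefSeq, GRCm38.p6, 5′ to 3′ on the gene's strand), and each lies in a tested peak. Capitals mark an interferon-stimulated response element core (ISRE: GAAA, any 2 bases, GAAA), an NF-kB motif or an EGR motif (GCGNGGGCG), searched on both strands. Oasl1, an antiviral gene of the oligoadenylate synthetase family (chr5:114922990-114923289, plus strand), is a promoter that virus opened also in the presence of zymosan. Cxcl10, a chemokine for T cells (chr5:92348840-92349139, minus strand), and Ifi205, an interferon-inducible gene of the AIM2-like family (chr1:174031706-174032005, minus strand), were lower with both ligands than with virus alone. H2-K1, a classical MHC class I gene (chr17:34000298-34000597, minus strand), and Socs3, an inhibitor of cytokine receptor signalling (chr11:117969317-117969616, minus strand), were higher with both ligands than with either.
Oasl1: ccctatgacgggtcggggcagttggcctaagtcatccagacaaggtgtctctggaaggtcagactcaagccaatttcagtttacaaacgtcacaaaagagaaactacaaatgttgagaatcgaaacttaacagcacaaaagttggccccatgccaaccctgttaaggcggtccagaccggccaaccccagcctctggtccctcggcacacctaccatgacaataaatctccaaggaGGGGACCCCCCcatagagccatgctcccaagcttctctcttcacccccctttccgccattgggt
Cxcl10: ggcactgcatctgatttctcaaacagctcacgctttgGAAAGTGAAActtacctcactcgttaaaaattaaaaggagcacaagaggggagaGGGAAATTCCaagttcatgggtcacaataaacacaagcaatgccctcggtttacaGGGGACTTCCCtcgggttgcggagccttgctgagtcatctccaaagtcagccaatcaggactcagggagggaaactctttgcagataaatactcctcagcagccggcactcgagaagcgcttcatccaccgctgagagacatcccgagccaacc
Ifi205: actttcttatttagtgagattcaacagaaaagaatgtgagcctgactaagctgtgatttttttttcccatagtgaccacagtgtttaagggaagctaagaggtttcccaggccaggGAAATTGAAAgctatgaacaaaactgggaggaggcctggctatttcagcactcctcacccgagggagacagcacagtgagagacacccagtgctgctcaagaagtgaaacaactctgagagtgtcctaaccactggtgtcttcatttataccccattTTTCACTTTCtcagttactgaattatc
H2-K1: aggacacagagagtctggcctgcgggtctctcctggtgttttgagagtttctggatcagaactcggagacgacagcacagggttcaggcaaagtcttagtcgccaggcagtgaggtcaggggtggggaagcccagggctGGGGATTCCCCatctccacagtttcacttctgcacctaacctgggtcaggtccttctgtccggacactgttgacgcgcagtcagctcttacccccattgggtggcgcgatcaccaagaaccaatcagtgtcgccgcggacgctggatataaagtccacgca
Socs3: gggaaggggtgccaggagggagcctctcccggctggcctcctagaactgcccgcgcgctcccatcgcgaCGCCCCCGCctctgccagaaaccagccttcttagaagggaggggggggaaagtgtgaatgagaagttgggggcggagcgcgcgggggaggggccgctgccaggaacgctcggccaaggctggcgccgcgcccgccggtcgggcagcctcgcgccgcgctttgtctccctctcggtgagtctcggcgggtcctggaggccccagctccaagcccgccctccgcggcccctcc
The Cxcl10 window holds 1 ISRE core and 3 NF-kB matches, of which 2 overlap. The Oasl1 window holds 2 NF-kB matches and no ISRE core. The Ifi205 window holds 2 ISRE cores and no NF-kB match. In the H2-K1 window the 1 marked place also counts as 2 overlapping NF-kB matches. A match is a description of the letters and not evidence of a bound factor.

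The cells were checked against markers of their labelled type. All 13 dendritic and myeloid markers (among them Itgax, Spi1, Csf1r, Irf8 and Zbtb46) had a tested promoter peak, with a summed level of 25.4 to 28.8 CPM (counts scaled to a common library total by TMM) per gene in the 8 libraries. Of the markers of T cells, B cells, NK cells, neutrophils, mast cells and fibroblasts, 1 or 2 genes per list had such a peak. Cd3e, Ncr1, Elane, Cpa3 and Col3a1 had none. Divided by all genes of a list, with or without a peak, the summed level was 0.52 to 6.24 CPM. This does not give the level of the genes with a peak, which is higher. The 2 neutrophil genes with a peak together held 22.02 to 43.7 CPM, and the 2 NK cell genes 9.03 to 19.7 CPM. The neutrophil list was lower in the virus-treated libraries (22.02 to 27.1 summed CPM in S and ZS) than in the others (31.3 to 43.7 in control and Z). The B cell list was higher in S and ZS (6.45 to 7.13) than in control and Z (2.73 to 5.56). In ZS alone the fibroblast list (11.8 to 12.4, against 6.82 to 9.22 elsewhere), the T cell list (15.1 to 16.2, against 11.5 to 14.8) and the dendritic and myeloid list (367 to 374, against 330 to 347) were higher. The part of these differences in the results was not tested. Counts outside the mitochondrial genome ranged from 9395816 to 15132150 per library. The mitochondrial genome took 61.9% and 60.1% of the counts in the control libraries, 62.4% and 60.9% in Z, 47.1% and 48.7% in S, and 58.1% and 51.0% in ZS. This share thus moved with the groups, and totals of called peaks and many counts at lists and loci are also given with it as a covariate. Accessibility in log2 CPM correlated at 0.913 to 0.949 across peaks between libraries of 1 group and at 0.910 to 0.918 between S and ZS libraries, against 0.858 to 0.869 between Z and ZS libraries.

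Adding virus to zymosan changed more peaks than adding zymosan to virus. Peaks were called at an adjusted p under 0.05 by edgeR's quasi-likelihood test with Benjamini-Hochberg adjustment over all tested peaks. Against zymosan alone, 18118 peaks were called with both ligands (15.2%), 7923 higher (6.63%) and 10195 lower (8.53%). Against virus alone, 3017 were called (2.53%), 1817 higher (1.52%) and 1200 lower (1.00%). A change of at least 2-fold was seen in 5628 of the peaks higher and 4941 of those lower than with zymosan, and in 1231 higher and 352 lower than with virus. Virus alone changed 33341 peaks against control (27.9%), zymosan alone 7062 (5.91%) and both together 33850 (28.3%).

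**Figure D1:**
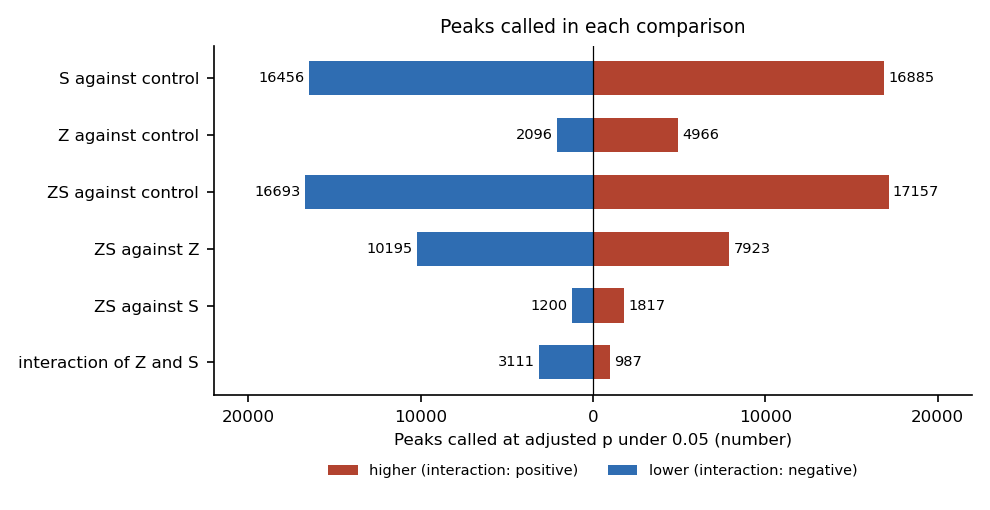
Number of peaks called higher (right) and lower (left) in each of 6 comparisons, with 2 libraries per group. The bars for both ligands against zymosan (7923 and 10195) are longer than those for both ligands against virus (1817 and 1200), and the interaction is mostly negative (3111 of 4098).

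The counts against virus depended on single libraries and on the mitochondrial share. They fell to 787 without S library 1, 1259 without S library 2, 1613 without ZS library 1 and 1101 without ZS library 2, and to 888 with the mitochondrial share as a covariate. Against zymosan, the same covariate gave 9223 peaks, and leaving out ZS library 2 gave 9279, Z library 2 gave 9732 and Z library 1 gave 11952. Scaling by total counts in place of TMM moved the median over all peaks by 0.24 (log2) against zymosan and by -0.17 against virus. The split of higher to lower calls then became 14372 to 4976 against zymosan and 1247 to 4761 against virus, so the direction of small changes is relative to the scaling.

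Peaks that virus changed by itself mostly kept their direction on a zymosan background. The sign of the change was the same for 82.6% of the peaks virus raised and 90.7% of those it lowered. Of the 16885 peaks that virus alone raised over control, 4186 (24.8%, against 6.63% of all peaks) were also higher with both ligands than with zymosan, 178 (1.05%) were lower and 12521 (74.2%) were not called. Their median log2 fold change was 1.57 for virus alone and 0.55 for virus on zymosan. Of the 16456 peaks that virus lowered, 6324 (38.4%, against 8.53%) were lower with both ligands than with zymosan and 10062 (61.1%) were not called, with medians of -1.11 and -0.62. The peaks were chosen by their call for virus alone, which raises the size of the first median of each pair, so the medians do not compare the sizes of the effects. Scaling by total counts split virus against control into 31040 higher and 7212 lower peaks, and the mitochondrial covariate into 5070 and 3236. These comparisons (S against control, ZS against Z) share no library, and across all peaks their log2 fold changes correlated at 0.491. The mitochondrial share was lower in S than in control and lower in ZS than in Z, while Z and control were alike. The shares of peaks and the correlations, here and for zymosan below, were computed without the covariate, and the part of the mitochondrial share in them was not tested.

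Most peaks that zymosan raised by itself were not called on a virus background, and those that were went in both directions. Of the 4966 peaks that zymosan alone raised, 185 (3.73%, against 1.52% of all peaks) were higher with both ligands than with virus, 152 (3.06%, against 1.00%) were lower and 4629 (93.2%) were not called. Their median log2 fold change was 1.28 for zymosan alone, the comparison that chose them, and -0.01 on virus. Of the 2096 peaks it lowered, 70 (3.34%) were lower on virus. The correlation across peaks between Z against control and ZS against S, which share no library, was 0.079. Of the 1817 peaks higher with both ligands than with virus, 185 (10.2%) had been raised by zymosan alone, against 4.16% of all peaks, and 1624 (89.4%) had not been called for it.

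**Figure D2:**
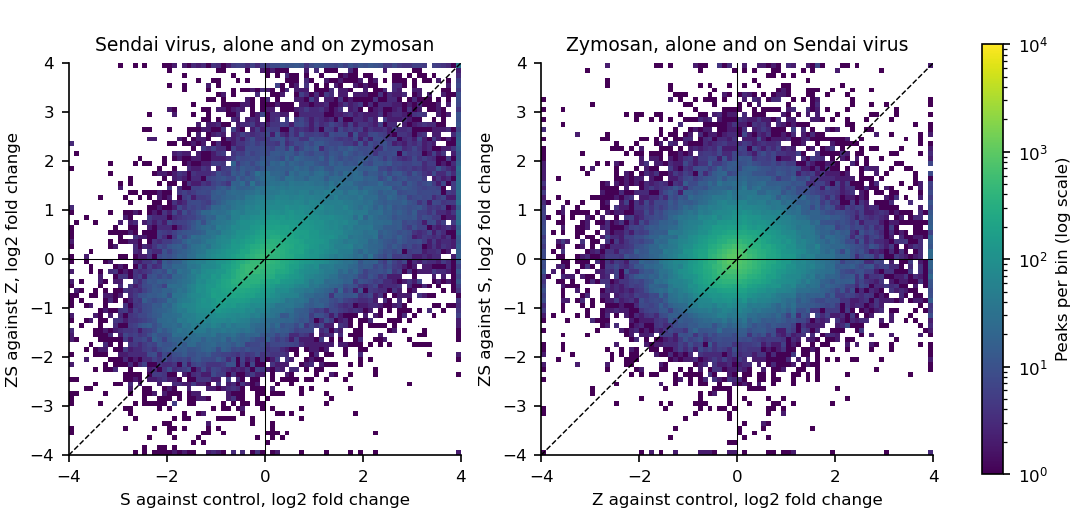
Log2 fold change of every tested peak for a ligand alone (horizontal axis) and for the same ligand added to the other (vertical axis), as the number of peaks per bin on a log colour scale; values beyond 4 are drawn at the edge and the dashed line marks equal effects. The left cloud, for virus, tilts along the line (r = 0.491), and the right cloud, for zymosan, does not tilt (r = 0.079). Both are from the fit without the mitochondrial covariate.

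Whether the log2 effects of the ligands added up was tested as ZS minus Z minus S plus control. It was called at 4098 peaks (3.43%), of which 3111 were negative (2.60%) and 987 positive (0.826%), and the covariate for the mitochondrial share gave 2641, with 2121 negative and 520 positive. Among the 3111 negative peaks, virus alone was called above control at 2668 and zymosan alone at 2318. Over all tested peaks those calls were made at 14.1% and 4.16%. These comparisons and the interaction share the control libraries, so the counts describe the class and nothing was read from them. The median change of the negative peaks against control was 1.39 for virus, 1.12 for zymosan and 1.00 for both. The same libraries chose these peaks, so the medians also only describe the class. Of the 987 positive peaks, virus alone was called below control at 631 and zymosan alone at 312, calls made at 13.8% and 1.75% of all tested peaks. The medians were -0.96 for virus, -0.57 for zymosan and 0.01 for both, with the same limit.

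The peak inside Alcam, a cell adhesion molecule, belonged to the negative group. It read 4.37 and 4.92 CPM in control, 26.8 and 29.4 in Z, 34.8 and 40.8 in S, and 33.2 and 29.5 in ZS. Each ligand alone raised it and the pair lay within the range of the single ligands. Its interaction was -2.87 (log2, SE 0.202, edgeR adjusted p = 3.56e-27). A peak inside Ell2, an elongation factor gene, went from 2.84 and 2.70 CPM in control to 27.6 and 27.3 in Z, 20.9 and 21.2 in S, and 25.9 and 21.2 in ZS (interaction -3.15, SE 0.239).

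Loci of interferon-induced effectors gained accessibility over zymosan. This list of 30 interferon-induced genes, many of them antiviral, held 285 tested peaks within 10 kb of the genes. Against zymosan, 56 were higher (19.6%, against 6.63% of all peaks) and 7 lower (2.46%, against 8.53%). The median log2 fold change of the list was 0.47, against 0.02 over all peaks. The higher peaks lay at 22 of the 30 genes, and no share over all genes is given here. The same list went the other way against virus alone, with 1 peak higher and 18 lower (6.32%, against 1.00%), at 13 genes, and a median of -0.17. The peaks below virus were 2 without ZS library 2, 9 without ZS library 1, 7 without either S library, 7 with the covariate and 39 with scaling by total counts, and those above zymosan were 33 without ZS library 2. The interaction was negative at 36 peaks (12.6%, against 2.60% of all peaks) and positive at none (against 0.826% of all peaks).

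Rsad2 encodes viperin, an antiviral enzyme. The peak across its gene body (chr12:26438731-26453446) read 25.6 and 27.98 CPM in control, 50.3 and 56.9 in Z, 183 and 179 in S, and 101 and 104 in ZS. Both libraries with the pair lay between the zymosan and the virus libraries, with no overlap. The difference was 0.93 (log2, SE 0.0952) over zymosan and -0.82 (SE 0.0885) against virus, with edgeR adjusted p = 3.03e-15 and 1.46e-13. The Oasl1 promoter peak, over the window printed above, read 10.4 and 11.1 CPM in control, 17.7 and 21.5 in Z, 45.0 and 44.2 in S, and 39.3 and 37.5 in ZS. It was higher with both ligands than with zymosan by 0.96 (SE 0.124, edgeR adjusted p = 2.72e-10), while the difference from virus, -0.22 (SE 0.110), did not pass the test.

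Ifit1, which binds viral RNA, had a gene-body peak at 3.82 and 5.79 CPM in control, 12.9 and 16.6 in Z, 50.6 and 51.0 in S, and 36.9 and 27.8 in ZS. It was lower with the pair than with virus by -0.66 (SE 0.136, edgeR adjusted p = 0.00129), a call lost without ZS library 2. At Mx1, an interferon-induced GTPase gene, a peak overlapping the gene read 21.7 and 23.0 CPM in Z, 31.5 and 31.4 in S, and 19.9 and 21.0 in ZS. The pair lay below virus by -0.62 (SE 0.126, edgeR adjusted p = 0.000574). Against zymosan the readings were only slightly lower, and no test of that difference is given here. Ifi205, whose promoter holds 2 ISRE cores, read 31.5 and 23.5 CPM in Z, 38.9 and 30.7 in S, and 24.1 and 24.2 in ZS over 13.1 and 11.5 in control. The difference from virus was -0.53 (SE 0.129, edgeR adjusted p = 0.00767), and it was lost with the mitochondrial covariate, with thinned counts and without S library 1, ZS library 1 or ZS library 2. Ifi205 was named after its values were seen.

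Interferon genes themselves followed the virus. A peak 119 bases beyond Ifnb1, the first type I interferon made after RIG-I signalling, read 3.28 and 1.83 CPM in control, 1.97 and 2.10 in Z, 20.3 and 22.9 in S, and 16.4 and 13.5 in ZS. Only the libraries with virus were open there. Against zymosan the change was 2.87 (SE 0.287, edgeR adjusted p = 8.86e-16), and against virus it was -0.53 (SE 0.201, edgeR adjusted p = 0.146). Of the 179 peaks at the 17 genes of interferons and their signalling, 24 were higher (13.4%, against 6.63% of all peaks) and 10 lower (5.59%, against 8.53%) than with zymosan, and 5 were higher (2.79%, against 1.52%) and 7 lower (3.91%, against 1.00%) than with virus. With the covariate these counts were 13, 7, 1 and 1, and without ZS library 2 no peak of the list was below virus. Genes that sense viral nucleic acids (15 genes, 189 peaks) had 19 peaks higher (10.1%) and 18 lower (9.52%) than with zymosan, and 1 higher and 8 lower (4.23%) than with virus. With the covariate these counts were 7, 8, 0 and 4, and without ZS library 2 they were 9, 8, 1 and 0.

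**Figure D3:**
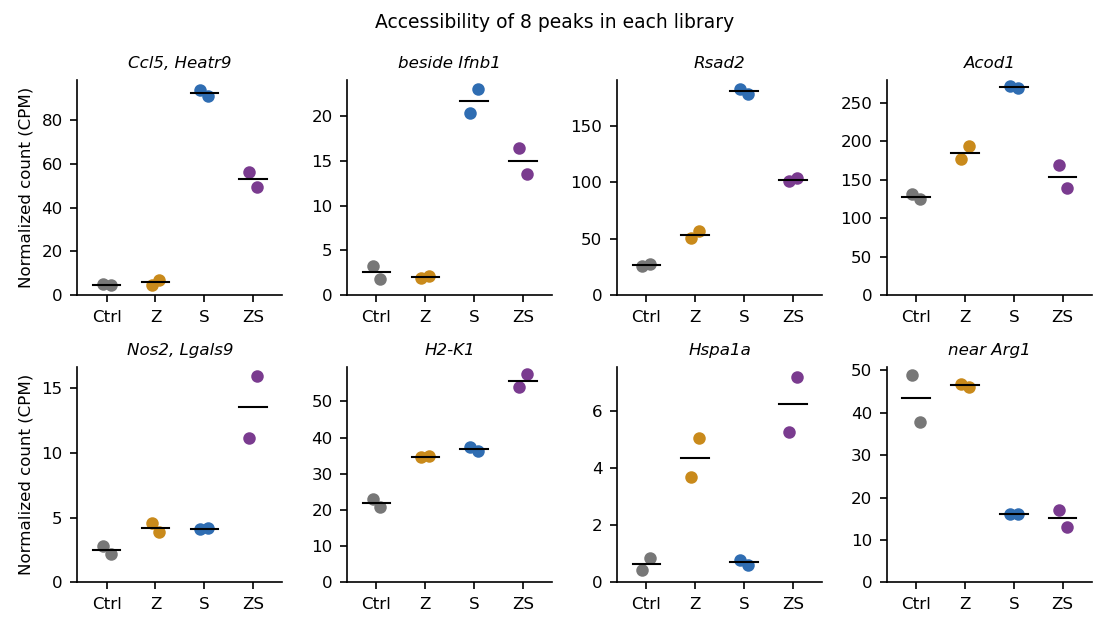
Normalized counts (CPM, linear axes from 0) of 8 peaks in each library of the control, Z, S and ZS groups; points are libraries and bars are means of 2. Ccl5, Ifnb1, Rsad2 and Acod1 are highest in S, Nos2 and H2-K1 are highest in ZS, Hspa1a is high in Z and ZS, and Arg1 is low in S and ZS.

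Chemokine and cytokine loci gained accessibility over zymosan as well. Inflammatory cytokines (19 genes, 179 peaks) had 33 peaks higher (18.4%, against 6.63% of all peaks) and 2 lower (1.12%, against 8.53%) than with zymosan, and 2 higher (1.12%, against 1.52%) and 7 lower (3.91%, against 1.00%) than with virus. The 33 became 20 with the covariate, 19 and 17 without Z library 1 or 2 and 15 without ZS library 2, and the 7 became 4 without S library 1, 3 without ZS library 2 and 20 with scaling by total counts. Chemokines and their receptors (22 genes, 124 peaks) had 16 higher (12.9%) and 5 lower (4.03%) than with zymosan, and 2 higher (1.61%) and 5 lower (4.03%) than with virus. The 16 became 28 with scaling by total counts and 10 without Z library 2, and the 5 below virus became 11 with scaling by total counts, 1 and 3 without S library 1 or 2 and 2 without ZS library 2. Ccl5 is a chemokine for T cells and monocytes. Its peak (chr11:83521831-83527834, also overlapping Heatr9) read 5.14 and 4.44 CPM in control, 4.86 and 7.03 in Z, 93.8 and 91.0 in S, and 56.4 and 49.4 in ZS. Zymosan alone left it near control, and the pair lay between zymosan and virus, 3.13 above zymosan (SE 0.148, edgeR adjusted p = 1.19e-44) and -0.81 from virus (SE 0.105, edgeR adjusted p = 2.12e-09).

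The Cxcl10 promoter peak read 18.6 and 19.0 CPM in control, 32.0 and 26.4 in Z, 70.9 and 65.0 in S, and 53.4 and 46.2 in ZS. The pair again lay between the single ligands: 0.77 above zymosan (SE 0.113) and -0.45 from virus (SE 0.102, edgeR adjusted p = 0.00307), the latter lost without S library 1 or ZS library 2. Tnfsf15, a TNF family cytokine, had peaks at differing levels against zymosan. An intragenic peak at 11.2 and 9.02 CPM in Z, 46.1 and 50.01 in S, and 34.2 and 30.8 in ZS was 1.70 above zymosan and -0.57 from virus (SE 0.118, edgeR adjusted p = 0.00085). Its promoter peak, at 15.2 and 13.6 in Z, 25.1 and 27.4 in S, and 15.5 and 15.3 in ZS, was at the zymosan level and -0.77 from virus (SE 0.146, edgeR adjusted p = 0.000132, lost with the covariate). Il15, a growth factor for NK and memory T cells, was lower with the pair than with virus by -0.51 (SE 0.104, edgeR adjusted p = 0.000516).

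The Tnf promoter peak differed less: 46.1 and 47.9 CPM in Z, 69.4 and 69.2 in S, and 67.4 and 66.8 in ZS, over 23.3 and 21.996 in control. The pair differed from virus by -0.05 (SE 0.0984) and exceeded zymosan by 0.51 (SE 0.104, edgeR adjusted p = 8.89e-05). At Il6, an inflammatory cytokine gene, the promoter peak read 11.9 and 8.71 CPM in Z, 18.8 and 20.1 in S, and 16.8 and 17.97 in ZS. It exceeded zymosan by 0.77 (SE 0.168, edgeR adjusted p = 0.000295).

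**Figure D4:**
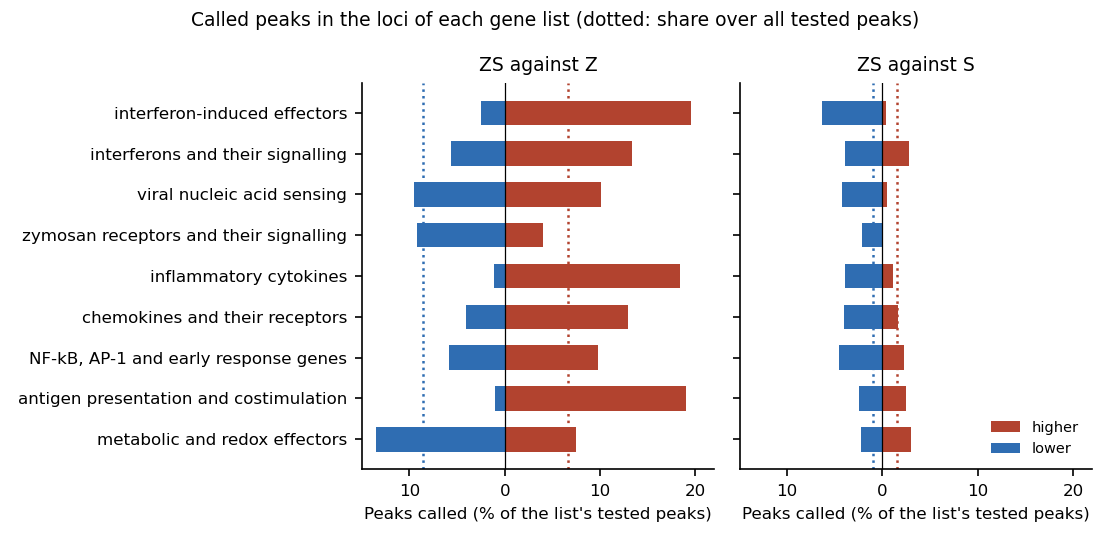
Share of each list's tested peaks called higher (right) and lower (left) with both ligands, against zymosan and against virus; dotted lines give the shares over all tested peaks. Against zymosan the bars of interferon-induced effectors, inflammatory cytokines and antigen presentation have the highest shares on the right (19.6%, 18.4% and 19.0%, against 6.63%). Of the 9 lists, that of zymosan receptors (3.98%) is the 1 that does not pass the line there. Against virus all 9 lists pass the line on the left (2.14% to 6.32%, against 1.00%). Some of them also pass it on the right (up to 3.01%, against 1.52%).

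NF-kB loci had more peaks below virus than above it. In NF-kB, AP-1 and early response genes (31 genes, 307 peaks), 30 were higher (9.77%, against 6.63% of all peaks) and 18 lower (5.86%, against 8.53%) than with zymosan, and 7 higher (2.28%, against 1.52%) and 14 lower (4.56%, against 1.00%) than with virus. With the covariate these counts were 13 and 11, then 4 and 8, and with scaling by total counts 62 and 7, then 2 and 32. The 14 peaks below virus became 9 and 7 without S library 1 or 2 and 5 without ZS library 2. Nfkbia encodes the inhibitor that holds NF-kB in the cytosol. The peak across it read 44.9 and 39.8 CPM in control, 37.5 and 35.7 in Z, 58.2 and 56.0 in S, and 36.9 and 35.6 in ZS. The libraries with both ligands matched those with zymosan and lay below virus by -0.66 (SE 0.106, edgeR adjusted p = 2.13e-06). Nfkb1, the gene of the p105/p50 subunit, had 4 of 46 peaks in its locus lower than with virus (against 1.00% of all peaks) and none higher. Fewer were called without S library 2 or ZS library 2, and 7 were called with scaling by total counts. One of the 4 rose from 1.53 and 1.25 CPM in control to 11.4 and 13.4 in Z and 20.3 and 21.6 in S, and stood at 10.6 and 12.2 in ZS. Its interaction was -4.04 (SE 0.298, edgeR adjusted p = 2.05e-25), and it lay at the zymosan level, -0.87 from virus (SE 0.155, edgeR adjusted p = 2.96e-05). A peak 1169 bases from Batf, an AP-1 family factor, moved in opposite directions with the single ligands. It read 10.2 and 12.3 CPM in control, 5.25 and 7.45 in Z, 19.5 and 20.6 in S, and 12.1 and 10.2 in ZS.

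Acod1 encodes the enzyme that makes itaconate in activated myeloid cells. The peak spanning it read 131 and 125 CPM in control, 176 and 193 in Z, 272 and 269 in S, and 169 and 139 in ZS. The pair was lower than every library with a single ligand, by -0.27 from zymosan (SE 0.0807, edgeR adjusted p = 0.0136) and by -0.82 from virus (SE 0.0795, edgeR adjusted p = 7.81e-16). In total, 395 peaks (0.331%) were below both single ligands, in 2 comparisons that share the ZS libraries. Without ZS library 2 there were 139, without ZS library 1 there were 288, and with the mitochondrial covariate 45. A peak 4954 bases from Birc3, an inhibitor of apoptosis, belonged to this class, at 3.67 and 3.57 CPM in Z, 3.07 and 3.75 in S, and 0.645 and 0.922 in ZS.

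Receptors and signalling genes for zymosan had fewer peaks higher than lower with the pair. In this list (23 genes, 327 peaks), 13 peaks at 9 genes were higher (3.98%, against 6.63% of all peaks) and 30 lower (9.17%, against 8.53% of all peaks) than with zymosan, and none higher and 7 lower (2.14%, against 1.00%) than with virus. The share lower than with zymosan is near the background. With scaling by total counts the split against zymosan turned to 26 higher and 13 lower, and the 7 peaks below virus became 2 with the covariate, 1 without either S library, 3 without ZS library 1 and none without ZS library 2. Vav1 encodes an exchange factor downstream of Syk, and a peak in it read 4.37 and 2.12 CPM in control, 9.45 and 9.97 in Z, 16.3 and 18.2 in S, and 20.4 and 20.1 in ZS. The pair stood above both zymosan libraries, by 1.06 (SE 0.181, edgeR adjusted p = 2.28e-06), and 0.23 from virus (SE 0.158), a difference that did not pass the test. Clec4e, the receptor Mincle, had an intragenic peak at 5.35 and 3.96 CPM in control, 9.97 and 10.1 in Z, 12.5 and 9.72 in S, and 7.42 and 5.90 in ZS. The pair was below both single ligands, by -0.74 from virus (SE 0.205, edgeR adjusted p = 0.0234). That call was lost with abundance-dependent offsets, in the fit of the compared groups, and without S library 1 or ZS library 2. Clec7a, which encodes Dectin-1, read 16.7 and 12.3 CPM in Z, 12.3 and 11.6 in S, and 11.1 and 10.0 in ZS at its promoter. It did not pass either test, and was named after its values were seen, as was Il6.

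The pair exceeded both single ligands at 718 peaks (0.601%), again with shared ZS libraries. Of these, 239 (33.3%) lay within 1 kb of an annotated gene end, against 14.3% of all tested peaks. The share was 20.9% for all peaks higher than with zymosan and 25% for all those higher than with virus. Peaks above both were also longer (median 860 against 451 bp) and of higher level (median 5.12 against 2.14 CPM) than all tested peaks. Without ZS library 2 the class held 233 peaks, without ZS library 1 it held 431, and with the mitochondrial covariate 182. Nos2 encodes inducible nitric oxide synthase, and 14 of the 19 peaks in its locus were higher than with zymosan and 7 higher than with virus, with none lower. Over all peaks the shares higher were 6.63% and 1.52%. The peak with the lowest p (chr11:78959292-78963606) overlaps Nos2 and the neighbouring galectin gene Lgals9. It read 2.84 and 2.22 CPM in control, 4.59 and 3.88 in Z, 4.12 and 4.18 in S, and 11.2 and 15.9 in ZS. The single ligands were alike and both libraries of the pair stood above all others. The change was 1.69 over zymosan (SE 0.235, edgeR adjusted p = 4.43e-09) and 1.71 over virus (SE 0.211, edgeR adjusted p = 1.51e-10), and the interaction was 0.97 (SE 0.381, edgeR adjusted p = 0.151), so a departure from additivity was not called.

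Genes of antigen presentation gained over zymosan. Of the 200 peaks at 19 genes, 38 were higher (19.0%, against 6.63% of all peaks) and 2 lower (1%, against 8.53%). A higher peak lay at 15 of the 19 genes, and no share over all genes is given here. Against virus the same list had 5 higher and 5 lower (2.50% each, against 1.52% and 1.00% of all peaks). The 38 peaks became 21 with the covariate and without Z library 1, 23 without Z library 2, 17 without ZS library 2 and 59 with scaling by total counts. The H2-K1 promoter peak read 23.1 and 20.9 CPM in control, 34.5 and 35.0 in Z, 37.4 and 36.2 in S, and 53.9 and 57.6 in ZS. Each ligand raised it by a like amount and the pair stood above both, by 0.68 over zymosan (SE 0.114, edgeR adjusted p = 1.19e-06) and 0.60 over virus (SE 0.108, edgeR adjusted p = 4.44e-05). Its interaction was -0.06 (SE 0.164). Tapbp, which encodes tapasin of the peptide-loading complex, read 18.9 and 19.7 CPM in Z, 28.6 and 29.2 in S, and 34.0 and 37.1 in ZS. It was 0.88 above zymosan (SE 0.137), and 0.30 above virus (SE 0.124, edgeR adjusted p = 0.203) without passing the test. Cd40, the costimulatory receptor, went below virus at its promoter, with 18.2 and 20.5 CPM in Z, 35.0 and 34.3 in S, and 24.5 and 27.4 in ZS. That difference, -0.41 (SE 0.122, edgeR adjusted p = 0.0386), was lost under 7 alternatives, among them the omission of any 1 of the 4 libraries, and Cd40 was named after its values were seen.

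Promoters of 3 further genes, named after their values were seen, were above both single ligands. Socs3 read 13.5 and 14.3 CPM in control, 28.7 and 26.3 in Z, 29.9 and 31.0 in S, and 42.4 and 40.0 in ZS, 0.43 over virus (SE 0.112, edgeR adjusted p = 0.0129). Dusp1, a phosphatase of MAP kinases, read 38.8 and 40.7 CPM in Z, 40.2 and 40.6 in S, and 54.9 and 55.0 in ZS, 0.44 over virus (SE 0.105, edgeR adjusted p = 0.00504). Maff, a small MAF factor, stood at 32.8 and 26.1 CPM in Z, 28.4 and 34.5 in S, and 44.0 and 40.7 in ZS, 0.43 over virus (SE 0.119, edgeR adjusted p = 0.0248). In all 3 the libraries with the pair stood above those with a single ligand, and in all 3 the call against virus was lost with scaling by total counts, with the mitochondrial covariate and without S library 1, ZS library 1 or ZS library 2. The calls at Socs3 and Dusp1 were lost without S library 2 too, and that at Maff with thinned counts. Where these calls were lost, the fold was 0.27 to 0.48 at Socs3, 0.28 to 0.45 at Dusp1 and 0.26 to 0.48 at Maff (log2).

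The highest fitted change over virus among the peaks the naming rule admits lay in Hspa1a, an inducible HSP70 chaperone gene. The peak read 0.437 and 0.868 CPM in control, 3.67 and 5.04 in Z, 0.785 and 0.615 in S, and 5.27 and 7.19 in ZS. Both groups with zymosan were high and both without it low, with a change of 3.14 over virus (SE 0.453, edgeR adjusted p = 6.78e-08) and 2.71 for zymosan over control (SE 0.512). Osm, a cytokine of the IL-6 family, had a peak at 11.4 and 13.3 CPM in Z, 8.05 and 8.55 in S, and 14.7 and 13.5 in ZS. It was 0.77 above virus (SE 0.198, edgeR adjusted p = 0.013), a call lost with scaling by total counts, with the covariate and without any 1 of the S or ZS libraries, with a fold of 0.60 to 0.83 in these fits.

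At some loci accessibility was low in every library with virus. A peak 2435 bases from Arg1, the arginase of alternatively activated myeloid cells, read 48.9 and 37.8 CPM in control, 46.7 and 46.2 in Z, 16.1 and 16.1 in S, and 17.1 and 13.1 in ZS. All libraries with virus were low and the pair matched virus, with -1.63 against zymosan (SE 0.135, edgeR adjusted p = 3.04e-21) and -0.10 against virus (SE 0.140). Metabolic and redox effectors as a list (18 genes, 266 peaks) had 36 peaks lower (13.5%, against 8.53%) and 20 higher (7.52%, against 6.63%) than with zymosan; 14 of those 20 lay in the Nos2 locus. Scaling by total counts turned this split to 14 lower and 32 higher, and the 36 became 19 without ZS library 2.

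Rnf213, a large ubiquitin ligase gene induced by interferon, changed along its length. Of the 78 peaks in the gene (chr11:119389950-119487418), 45 were higher than with zymosan and 23 higher than with virus, and none was lower in either comparison. The shares higher over all peaks were 6.63% and 1.52%. Summed over the gene, the level was 76.2 and 78.6 CPM in control, 122 and 141 in Z, 186 and 199 in S, and 344 and 358 in ZS. The 2 libraries with the pair stood above all single-ligand libraries of these 3 groups. Across the 18 groups of the series the highest mean sums were 362 CPM with zymosan, virus and cGAMP, and 351 with zymosan and virus, and the next was 294 with the triplet labelled PLH. The count of peaks above virus was 5 without S library 1, 8 without S library 2, 14 without ZS library 1, 6 without ZS library 2, 18 with scaling by total counts, 14 with DESeq2, 14 with thinned counts and 1 with the mitochondrial covariate. Against zymosan it was 28 without Z library 1, 29 without Z library 2 and 27 without ZS library 2, and at most 52 under the alternatives run.

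**Figure D5:**
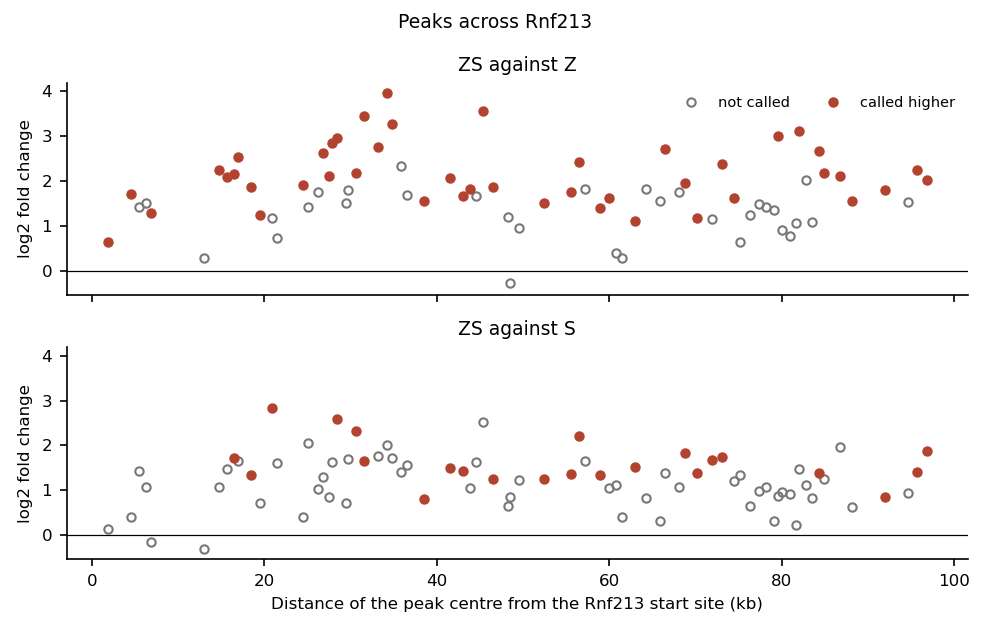
Log2 fold change of each of the 78 peaks in Rnf213 by distance from its start site, with both ligands against zymosan (top) and against virus (bottom); filled points passed the test. The 45 and 23 called peaks are spread over the gene and all lie above 0.

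A similar spread was seen in Unc5a, a netrin receptor gene, where 11 of 16 peaks were higher than with zymosan and 4 higher than with virus (6.63% and 1.52% over all peaks). Its summed level was 29.3 and 27.0 CPM in Z, 43.4 and 52.4 in S, and 87.2 and 98.3 in ZS, and the 11 became 7 without ZS library 2. Another pattern was seen in a pair of loci with many peaks above virus, a call made at 1.52% of all peaks. Sfi1 (16 of 30 peaks higher) summed to 688 and 804 CPM in control, 760 and 724 in Z, 510 and 533 in S, and 890 and 943 in ZS. Mroh2a (12 of 36 higher) summed to 105 and 120 in control, 106 and 90.9 in Z, 58.0 and 58.5 in S, and 135 and 152 in ZS. In both the low group was virus alone, and the mitochondrial covariate gave 9 and 7 peaks. Sfi1 had 10 without S library 2, and Mroh2a 6 without S library 1, 8 without S library 2 and 8 without ZS library 1. Unplaced scaffolds held 40 of the 1817 peaks higher than with virus, against 176 of all 119464 tested peaks. How reads from repeated sequence were placed is not given in the sources used here.

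Motifs in the promoter windows differed between the sets of called promoters. An ISRE core was present in 3.44% of all 32841 windows and in 3.28% of the 14482 windows that overlap a tested peak. Among the 165 windows whose peak was lower with the pair than with virus it was present in 10.3%, and among the 433 higher in 2.54%. NF-kB matches were in 10.9% of windows with a tested peak, in 16.4% of the lower set and in 11.1% of the higher. Windows with a negative interaction (157) held an ISRE core in 12.1%, an NF-kB match in 21.7% and an AP-1 motif (TGANTCA) in 18.5%, against 5.71% of windows with a tested peak for AP-1. The EGR motif marked in Socs3 was in 15.2% of the set higher than with virus and 10.4% of windows with a tested peak, and the higher set had a median GC content of 65.0% against 61.0%. The set lower than with virus had a median GC content of 55.7%, and the set with a negative interaction 52%. The sets thus differed in base content, and its part in the motif shares was not tested. Against zymosan, an ISRE core was in 3.12% of the 1540 higher and 3.17% of the 1577 lower windows, near the 3.28% of windows with a tested peak. The EGR motif was in 14.1% and 8.18% of these sets. A PU.1 motif (GAGGAAGT) was in 0.974% and 4.82%, against 3.63% of windows with a tested peak. None of these shares was tested, and windows of 1 gene can overlap.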

How the data were processed

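Per the submitters' processing notes, the authors used Bowtie2 2.2.9, MACS2 1.4, bedtools and featureCounts with the mm10 build, and deposited raw counts per peak and library for 119751 peaks and 36 libraries, without normalization. The order of the steps, the shift for the transposase, the treatment of duplicates and of reads with several placements, and whether peaks were called on pooled libraries are not given in the sources used here. Per the labels' protocols, 50000 cells were lysed and libraries were amplified by 12 PCR cycles.

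The mitochondrial peak was left out. All 36 libraries were fitted together in edgeR 4.0.16 (R 4.3.3; TMM scaling, a filter at 10 counts that removed 286 peaks, the robust quasi-likelihood test, 18 residual degrees of freedom, 1 coefficient per group), with Benjamini-Hochberg adjustment over 119464 peaks. The script was tested on simulated data. CPM, a count scaled to a common library total, were computed after TMM scaling. Depth was 9395816 to 15132150 counts outside the mitochondrial genome in the 8 libraries used. The counts of libraries of 1 group differed by 2.23 to 3.23 times the sampling variance (chi-square per degree of freedom), so none was counted as a repeat of another.

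Named peaks were the 5 highest and 5 lowest fitted changes of each comparison with a mean of at least 2 CPM and no overlap of groups, the 4 positive and 4 negative interactions with the lowest p, the 6 largest above both ligands, the 3 genes per list and comparison with the lowest p, and the 3 genes with the most called peaks in 1 direction. A peak takes the name of the protein-coding gene it overlaps, else the nearest. A locus is the gene with 10 kb on either side, and a promoter peak lies within 1 kb of the start site (of either gene end where the strand is not known). All 194 genes of the 9 lists matched RefSeq's table (GRCm38.p6), and 144 had a known start site. The members and lists were chosen with earlier results of these data known. Alternatives were other scalings, no filter, a replicate block, the mitochondrial share as a covariate, thinned counts, the compared groups alone, DESeq2 1.42.0, and leaving out each library. Peaks carry no exon or intron annotation here.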

Additional observations from a re-analysis of the deposited data

Results flagged for a closer look

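The effect of one ligand depended on the other, by the test of the interaction, at 4098 peaks (edgeR's quasi-likelihood test, 18 residual degrees of freedom). With the mitochondrial share as a covariate the count was 2641. The 4 negative and 4 positive peaks with the lowest p are given here as log2 values, where a negative value means that the pair stood below the product of the single effects.

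The most negative of these 8 lay in Nfkb1, at -4.04, followed by peaks in Ell2 at -3.15, Alcam at -2.87 and Rsad2 at -1.82. In Nfkb1, Ell2 and Alcam each ligand alone raised the peak by 2.59 to 3.91 against control, and the pair stood at or near the level of zymosan.

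Of control, Z, S and ZS, the positive peaks were lowest with virus alone. The peak nearest to Samd9l, 170551 bases away, read 59.3 and 61.6 CPM in control, 57.0 and 47.6 in Z, 22.5 and 22.5 in S, and 60.4 and 58.1 in ZS, with an interaction of 1.61. The peak in Cmss1 and Filip1l read 115 and 113 CPM in control, 108 and 101 in Z, 54.6 and 50.7 in S, and 106 and 102 in ZS, with 1.12. The peak in Peak1 read 44.6 and 42.6 CPM in control, 26.4 and 29.8 in Z, 15.6 and 14.3 in S, and 36.8 and 33.2 in ZS, with 1.85, and there zymosan alone was also below control, by -0.63. A peak 8179 bases from Rimbp3 read 23.4 and 21.9 CPM in control, 16.7 and 17.1 in Z, 7.26 and 5.90 in S, and 24.5 and 20.9 in ZS, with 2.21. In all 4, virus lowered the peak when given alone (-1.12 to -1.78 against control) and the pair did not pass the test against zymosan. The S libraries were also those with the lowest mitochondrial share of the 8 (47.1% and 48.7%), and the part of this difference in the pattern was not tested beyond the covariate fit, under which these 8 calls held.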

How the results depend on the processing

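With the mitochondrial share as a covariate, the peaks called with both ligands were 9223 against zymosan (3875 higher, 5348 lower), 888 against virus (597 higher, 291 lower), 2641 in the interaction (520 positive), 182 above both ligands and 45 below both, and virus against control gave 8306. Because this share differs between the groups, the effect of the ligands and that of the share cannot be fully told apart. Scaling by total counts gave 14372 higher and 4976 lower against zymosan, 6008 against virus with 4761 lower, 603 positive and 4677 negative interactions, and 642 below both. The fit of the compared groups alone gave 755 lower against virus, 2065 negative interactions and 251 below both; thinned counts gave 789 and 254 for the first and last of these, and abundance-dependent offsets 237 below both. Scaling by total counts also split virus against control into 31040 higher and 7212 lower, and both ligands against control into 23410 and 10708. The covariate for the mitochondrial share split virus against control into 5070 and 3236. The other totals of called peaks for the 6 comparisons, and for peaks above or below both ligands, stayed within 1.5 times the main count under these settings and under DESeq2, no filter, median-ratio size factors and the mitochondrial peak kept. Counts at single genes and lists moved more.

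Leaving out 1 library gave 9279 to 12800 peaks against zymosan (3978 to 5721 higher, 5301 to 7079 lower), 787 to 1613 against virus (530 to 969 higher, 257 to 644 lower), 2833 to 3097 interactions (560 to 703 positive, 2144 to 2472 negative), 233 to 431 above both and 139 to 288 below both. The comparisons with control gave 21786 to 25763 for virus, 3604 to 4294 for zymosan and 21700 to 26697 for both. A group then left with 1 library is assumed to vary like the others. Of the 106 calls at named peaks, 67 held under every alternative, 39 were lost under at least 1 and none reversed; the cause was not tested.

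Libraries with the same replicate number did not deviate together (correlation -0.04 to 0.03 over 153 pairs of groups). This cannot show whether they share a mouse, culture or preparation, which the labels do not give. A fit with the replicate block called 18042 peaks against zymosan (7873 higher, 10169 lower), 2980 against virus (1788 higher, 1192 lower) and 4062 interactions (970 positive, 3092 negative), and no named call was lost. In these 8 libraries 1 CPM stands for 7.62 to 16.3 counts, which limits the changes that can be seen at peaks of low CPM.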
